A study of Homo sapiens with 6 samples.

Results

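Interferon-stimulated genes are the genes that cells switch on when interferon binds its receptor. A panel of 41 such genes was followed in U251 cells, an established human glioma cell line, with and without exposure to sevoflurane (Sev), an inhaled anesthetic. The panel was a list of names of known interferon targets, drawn up when earlier results of these data were already known, and all 41 were found among the 61496 features of the deposited tables. Of these, 38 had enough reads to be tested, whereas RSAD2, XAF1 and CXCL10 did not.

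Type I interferon binds a receptor made of IFNAR1 and IFNAR2, and the kinases JAK1 and TYK2 then phosphorylate STAT proteins, among them STAT2. With IRF9 these form a complex that binds the interferon-stimulated response element (ISRE), a short sequence in the promoters of its target genes. The targets include sensors of viral RNA, enzymes that restrict viral replication, and transcription factors of the pathway itself. Many cells express part of the set at a low level without added interferon.

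The design set 3 untreated control libraries against 3 from cells that had been kept under Sev gas for 2 h, both of the same U251 line with no other agent named. The sample protocol lists Sev at 1.7, 3.4 and 5.1% and assigns none of these to a single library, so the concentration per library is not given by the labels. The paper describes its comparison of Sev-treated and control U251 RNA as made at the highest of these. Total RNA was sequenced after the ligation of strand-specific adapters. The paper speaks of independent experiments for its quantitative data in general, but no label says that these libraries came from separate cultures, so the p-values measure the spread between these libraries, which may be technical.

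Library totals lay between 38624292 and 46318311 counts, and replicates of a group differed by more than counting noise in 51.7 to 69.9% of 13223 well-covered genes. Values are given as read counts relative to the library total (CPM), scaled by the TMM method. A large part of the transcriptome differed between the 2 groups of libraries. With an adjusted p under 0.05 in edgeR's quasi-likelihood test, 22.1% of 27514 tested features were higher after Sev and 21.5% were lower. That split depended on the scaling, since with library size alone 17% were higher and 27.3% lower. Markers of glioma or astroglial cells summed to between 7738 and 8666 CPM in the control libraries and between 8784 and 9267 CPM after Sev. VIM made up most of this sum, and of the 8 markers SOX2 and S100B fell 1.65-fold and 2.14-fold and CD44 rose 1.96-fold (adjusted p = 0.000367, 0.00215 and 0.000174). Of 8 markers of leukocytes or microglia, AIF1, CD3E and TYROBP were at 0 in every library and PTPRC had at most 12 counts. The summed level of these 8 markers was 5.27 to 5.69 CPM in control cells and 12.8 to 14.4 CPM after Sev, and the 3 that could be tested, CD14, CSF1R and ITGAM, were all higher, CSF1R not without any 1 control library (adjusted p = 0.0536 to 0.0659). Their part in the results on interferon-stimulated genes was not tested. In bulk RNA, fewer cells that express a gene and less of its RNA per cell cannot be told apart.

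The interferon-stimulated genes did not move as a block. After 2 h of Sev, 11 of the 38 tested genes fell, 4 rose and 23 did not pass the test. The share that fell was 28.9%, against 21.5% of all tested features, and the share that rose was 10.5%, against 22.1%. In either direction it was 39.5%, against 43.7% of all features. All members encode proteins, and of 15189 protein-coding genes 25% rose and 21% fell. The genes that fell were SAMD9L, PARP9, PARP14, DDX60, IFIH1, STAT2, TRIM22, IFI27, IFIT1, RIGI and IFITM3. The genes that rose were OAS2, GBP1, GBP2 and IFIT3. The median log2 fold change was -0.23 over the 38 genes and -0.01 over all features tested, with 26 negative and 12 positive values. Without control replicate 1, which held the highest value of 20 of the 38 genes, the median was -0.14.

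**Figure D1:**
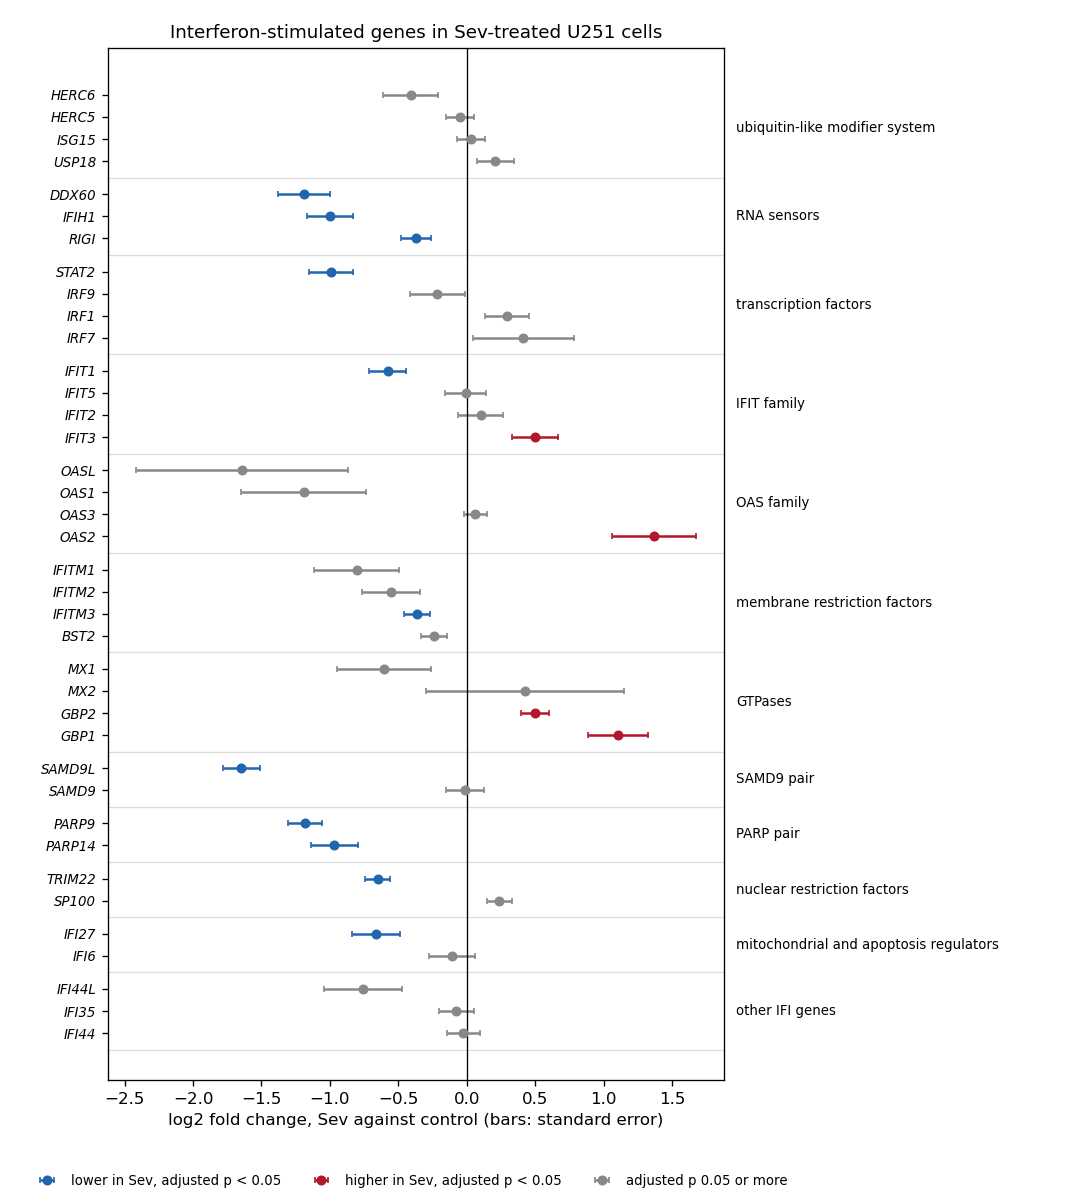
Log2 fold change (horizontal axis) of the 38 tested interferon-stimulated genes after Sev, grouped by role. Points are edgeR estimates, bars are standard errors, and blue, red and gray mark genes that were lower, higher or not past an adjusted p of 0.05; the RNA sensors and the PARP pair lie on the negative side, while the IFIT, OAS and GTPase groups hold genes on both sides of 0.

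The spread of the panel ran from SAMD9L at -1.65 to OAS2 at 1.37 on the log2 scale. With a log2 fold change beyond 1 and an unadjusted p under 0.05, the limits in the study's methods, SAMD9L, PARP9, DDX60, IFIH1 and OAS1 were past the limit downward, and OAS2 and GBP1 upward. Among all features, 12% passed these limits downward and 11.4% upward, and of the protein-coding genes 7.62% and 9.07%. The 5 downward became 3 without control replicate 1 and 8 without Sev replicate 2, and the 2 upward became 1 without control replicate 3 or without Sev replicate 3. The 3 control and 3 Sev libraries did not overlap for 15 genes that were lower, against a background of 28.2% of features, and for 7 that were higher, against 28.3%. Of the protein-coding genes, these shares were 26.6% and 31.2%.

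Among the genes of the panel that passed the test, the largest fall was that of SAMD9L, a cytoplasmic antiviral and growth-restraining protein encoded on chromosome 7 at 93130055-93148369 on the minus strand of GRCh38. SAMD9L stood at 26.5, 23.9 and 21.8 CPM in the control libraries and at 7.11, 7.27 and 8.66 CPM after Sev. Every Sev library lay far under the lowest control library. The log2 fold change was -1.65 ± 0.13 (SE, n = 3 per group), a level 3.13-fold lower, with an edgeR adjusted p of 0.000154. SAMD9, the paralog that lies 12 kb away on the same strand, did not pass the test. SAMD9 was at 48.8, 47.7 and 49.2 CPM in control cells and at 45.9, 58.9 and 39.5 CPM after Sev, so that the groups overlapped, with a log2 fold change of -0.01 ± 0.14 that turned slightly positive (0.0011) with DESeq2's size factors. The ratio of SAMD9 to SAMD9L counts was 1.85, 2.00 and 2.25 in control libraries and 6.46, 8.10 and 4.56 in Sev libraries.

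The RefSeq promoters of the pair differ in the letters of the ISRE core, which is GAAA, any 2 bases and GAAA. The SAMD9 window of 250 bases before to 50 bases after the start holds a match on the coding strand, given in capitals with its surroundings at chr7:93118086-93118135 (GRCh38.p14, minus strand). The SAMD9L window holds no exact match on either strand, although it has aaaactgaaa, which differs from the core in its first base. Only exact letters were searched. The SAMD9L stretch of 120 bases at chr7:93148386-93148505 (minus strand) is shown in lower case throughout. Both read 5′ to 3′ along the gene.
SAMD9: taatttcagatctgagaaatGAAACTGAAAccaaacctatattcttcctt
SAMD9L: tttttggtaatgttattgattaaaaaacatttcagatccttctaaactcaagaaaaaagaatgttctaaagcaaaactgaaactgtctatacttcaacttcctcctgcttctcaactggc

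The PARP pair fell together. PARP9 and PARP14 belong to the ADP-ribosyltransferase family, and PARP9 acts in a complex with the ubiquitin ligase DTX3L. PARP9 was at 58.9, 44.0 and 49.7 CPM in control cells and at 23.0, 21.1 and 23.2 CPM after Sev. PARP14 was at 464, 296 and 355 CPM in control cells and at 176, 221 and 173 CPM after Sev. For both genes all Sev libraries lay under all control libraries, with log2 fold changes of -1.18 ± 0.12 (adjusted p = 0.000372) and -0.97 ± 0.17 (adjusted p = 0.0034). PARP14 was the member with the most reads, with 35.9% of the summed CPM of the panel in control cells and 25.5% after Sev. The summed CPM of the panel was 1171, 916 and 988 in control libraries and 715, 810 and 702 after Sev. Without PARP14 the sums were 708, 620 and 633 against 540, 589 and 529, and the groups still did not overlap.

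DTX3L starts beside PARP9 on the opposite strand of chromosome 3, and the annotated exons of both genes share 217 bases, in which reads cannot be assigned without the strand. It was not in the panel but in a second list of interferon-stimulated genes. DTX3L was at 58.8, 55.3 and 53.5 CPM in control cells and at 26.4, 28.6 and 27.3 CPM after Sev, a log2 fold change of -1.03 ± 0.09 (adjusted p = 0.000168). The ratio of PARP9 to DTX3L counts overlapped between the groups, at 1.002, 0.795 and 0.930 in control libraries and 0.872, 0.736 and 0.851 after Sev. A window of each gene holds the same ISRE core match, at chr3:122564332-122564341, which is at position -41 from that PARP9 start and -6 from the DTX3L start. The window of another PARP9 start holds none. PARP14 lies further along the chromosome and has its own match. The stretches around the matches are chr3:122564312-122564361 on the minus strand for PARP9 and chr3:122680790-122680838 on the plus strand for PARP14. Capitals mark the ISRE core or, where it lies on the other strand, its reverse complement (TTTC, any 2 bases, TTTC).
PARP9: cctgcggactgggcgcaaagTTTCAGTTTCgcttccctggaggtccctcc
PARP14: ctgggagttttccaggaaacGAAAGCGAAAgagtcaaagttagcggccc

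All 3 RNA sensors of the panel fell. DDX60, a helicase that assists antiviral RNA recognition, was at 6.03, 4.29 and 5.34 CPM in control cells and at 2.15, 2.58 and 2.12 CPM after Sev. IFIH1, which encodes the sensor of long double-stranded RNA, was at 9.05, 8.20 and 7.17 CPM against 3.48, 4.604 and 4.11 CPM. RIGI, which encodes the sensor of short RNA with a triphosphate end, was at 24.4, 25.2 and 23.4 CPM against 20.9, 17.8 and 17.7 CPM. In none of the 3 did the groups overlap. DDX60 and IFIH1 were 2.28-fold and 2.00-fold lower (log2 fold changes of -1.19 ± 0.19 and -1.001 ± 0.17, adjusted p = 0.00209 and 0.00259), while RIGI was 1.29-fold lower (-0.37 ± 0.11, adjusted p = 0.025). The fall of RIGI was the least certain, since it missed the limit of 0.05 when any library other than Sev replicate 1 was left out, with adjusted p-values of 0.05355 to 0.0729.

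The promoters of DDX60 and IFIH1 hold 2 and 3 matches of the ISRE core, of which a pair in IFIH1 overlaps, while the RIGI window holds none. The stretches lie at chr4:168318776-168318860 for DDX60 and chr2:162318685-162318863 for IFIH1, both on the minus strand.
DDX60: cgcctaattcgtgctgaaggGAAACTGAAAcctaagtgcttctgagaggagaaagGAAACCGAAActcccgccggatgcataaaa
IFIH1: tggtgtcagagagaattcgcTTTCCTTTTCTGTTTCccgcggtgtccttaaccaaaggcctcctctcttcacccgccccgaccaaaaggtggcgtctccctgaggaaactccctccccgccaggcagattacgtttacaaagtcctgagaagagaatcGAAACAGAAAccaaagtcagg

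Among the transcription factors, STAT2 was the only one of 4 that passed the test. STAT2 is the STAT that is specific to type I and type III interferon, and it was at 88.6, 62.3 and 67.7 CPM in control cells and at 33.0, 43.2 and 33.5 CPM after Sev. The groups did not overlap, and the log2 fold change was -0.99 ± 0.16 (adjusted p = 0.00224). Its partner IRF9 was at 21.2, 13.6 and 17.1 CPM against 13.2, 18.5 and 13.0 CPM, with overlapping groups and a log2 fold change of -0.21 ± 0.20 (adjusted p = 0.422) that was -0.05 without control replicate 1 and -0.40 without Sev replicate 2. The exons of IRF9 share 1838 bases with AL136295.5 on the same strand, so reads of the pair cannot be separated with certainty. IRF1, a factor that also answers to interferon gamma, had a log2 fold change of 0.29 ± 0.16 (adjusted p = 0.179), and 1716 of its exon bases lie opposite exons of C5orf56. The value for IRF1 was 0.12 without Sev replicate 2 and 0.46 without Sev replicate 3, where it passed the test (adjusted p = 0.0216). IRF7, the factor that drives expression of the interferon alpha genes, was at 10.8, 3.38 and 9.06 CPM against 8.92, 11.8 and 10.3 CPM. Its log2 fold change of 0.41 ± 0.37 (adjusted p = 0.397) became 0.05 without control replicate 2.

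The IFIT genes encode proteins that bind foreign RNA and lie side by side on chromosome 10, and they split. IFIT1 was at 11.2, 9.46 and 10.98 CPM in control cells and at 7.33, 7.45 and 6.41 CPM after Sev. IFIT3 was at 4.14, 5.02 and 4.96 CPM against 6.45, 5.75 and 7.72 CPM. The groups did not overlap for either gene, and the directions were opposite: the log2 fold change was -0.58 ± 0.14 for IFIT1 (adjusted p = 0.0109) and 0.50 ± 0.17 for IFIT3 (adjusted p = 0.0453). The rise of IFIT3 stood close to the limit. It missed the limit when any library other than Sev replicate 2 was left out, with adjusted p-values of 0.075 to 0.135. It also missed the limit with library size alone (0.142). IFIT5, the highest of the family, was at 24.2, 28.97 and 26.1 CPM in control cells and at 24.7, 22.3 and 31.9 CPM after Sev. IFIT2 and IFIT5 had overlapping groups and log2 fold changes of 0.10 ± 0.16 and -0.01 ± 0.15, with IFIT2 at -0.04 under library size alone and IFIT5 at 0.0078 with DESeq2's size factors. The IFIT1 window and the window of the first IFIT3 start hold 2 ISRE core matches each, at chr10:89392487-89392549 and chr10:89327821-89327904 on the plus strand, and the window of a later IFIT3 start, not shown, holds 2 others.
IFIT1: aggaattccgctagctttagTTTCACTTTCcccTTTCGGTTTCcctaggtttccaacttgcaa
IFIT3: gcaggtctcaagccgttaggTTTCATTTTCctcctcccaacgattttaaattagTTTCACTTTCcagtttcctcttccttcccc

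The OAS genes encode the oligoadenylate synthetases, which make a second messenger on sensing double-stranded RNA, and OASL encodes a relative without that activity. OAS2 rose from 1.25, 0.681 and 0.865 CPM to 1.75, 2.40 and 3.08 CPM, with a log2 fold change of 1.37 ± 0.31 (adjusted p = 0.00904). OAS3 was the OAS gene with the highest level, at 25.7, 25.9 and 25.2 CPM in control cells and 25.99, 27.04 and 27.3 CPM after Sev. Its log2 fold change was 0.06 ± 0.09 (adjusted p = 0.574), and -0.08 with library size alone. OAS1 and OASL had few reads, with log2 fold changes of -1.19 ± 0.46 (adjusted p = 0.067) and -1.64 ± 0.77 (adjusted p = 0.122). OAS1 passed the test without control replicate 3 (-1.52, adjusted p = 0.0255) and with library size alone (-1.34, adjusted p = 0.0451). OASL was at -2.63 without Sev replicate 3 and -1.07 without Sev replicate 1, neither past the limit. OASL counts were 52, 36 and 31 in control libraries and 0, 11 and 23 after Sev. Of the 4 genes, then, only OAS2 passed the test.

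**Figure D2:**
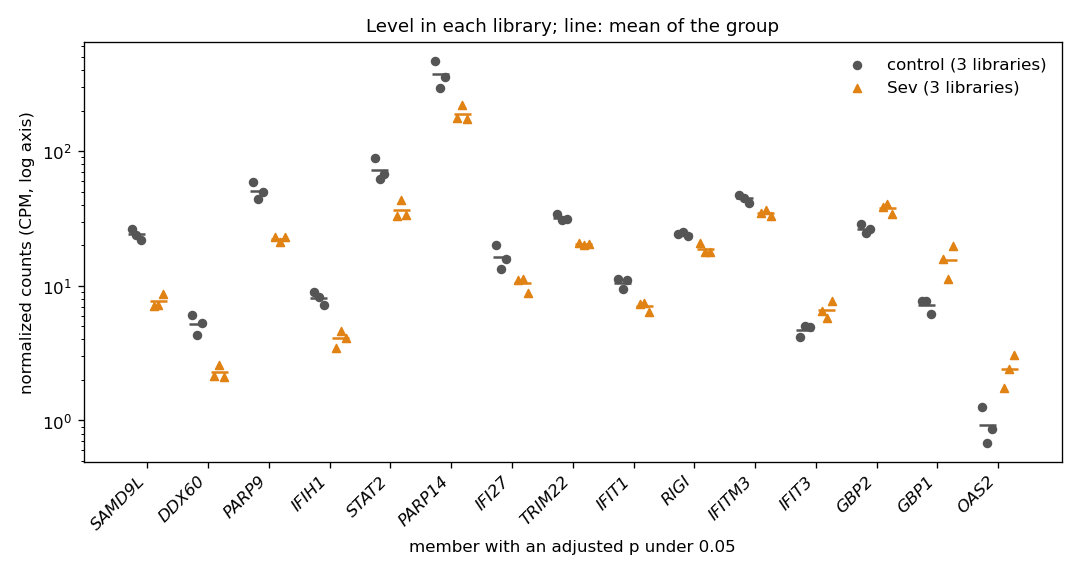
TMM-scaled CPM on a log axis for the 15 interferon-stimulated genes that passed the test, with a point for each of the 3 control and 3 Sev libraries and a line at the group mean. Levels run from OAS2 at 0.681 to 3.08 CPM to PARP14 at 173 to 464 CPM. The 2 groups do not overlap in any of these genes, but the genes were chosen by the test on these same libraries, so this adds no support.

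The interferon-induced GTPases were the group with the most rises. GBP1 and GBP2 encode guanylate-binding proteins, large GTPases that coat intracellular pathogens and respond above all to interferon gamma. GBP1 rose from 7.75, 7.75 and 6.20 CPM to 15.7, 11.2 and 19.8 CPM, and GBP2 from 28.7, 24.6 and 26.5 CPM to 38.3, 40.2 and 34.3 CPM. The log2 fold changes were 1.11 ± 0.22 (adjusted p = 0.005) and 0.50 ± 0.10 (adjusted p = 0.0065). MX1 and MX2, the GTPases that trap viral capsids and nucleoproteins, had few reads in these cells. MX1 was at 2.91, 1.62 and 1.15 CPM against 1.17, 1.22 and 1.34 CPM, and its log2 fold change of -0.60 ± 0.34 did not pass the test (adjusted p = 0.192) and was -0.16 without control replicate 1. MX2 stayed under 1 CPM in every library, with a log2 fold change of 0.43 ± 0.72 that was -0.41 without Sev replicate 1. The GBP1 promoter holds a single ISRE core match on the other strand, at chr1:89065306-89065355 (minus strand).
GBP1: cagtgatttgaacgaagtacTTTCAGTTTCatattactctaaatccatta

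The membrane restriction factors were all lower in the mean, but only IFITM3 passed the test. The IFITM proteins block the fusion of viral and endosomal membranes, and BST2 tethers budding virions to the cell surface. IFITM3 was at 47.6, 44.98 and 41.4 CPM in control cells and at 34.6, 36.6 and 32.8 CPM after Sev, with no overlap and a log2 fold change of -0.37 ± 0.09 (adjusted p = 0.0152). Without Sev replicate 1 the adjusted p was 0.0527. IFITM1, IFITM2 and BST2 had log2 fold changes of -0.81 ± 0.31, -0.55 ± 0.21 and -0.24 ± 0.10, with adjusted p-values of 0.0684, 0.0677 and 0.0753 and no overlap between the groups. IFITM2 passed the test without control replicate 2 (-0.70, adjusted p = 0.0403), IFITM1 was at -0.48 without control replicate 1, and with library size alone IFITM1, IFITM2 and BST2 all passed (0.0421, 0.0342 and 0.0135). IFITM1 and IFITM2 share 351 exon bases on the same strand, so their counts are not independent. The IFITM3 promoter has a pair of ISRE core matches at chr11:320866-320932 on the minus strand.
IFITM3: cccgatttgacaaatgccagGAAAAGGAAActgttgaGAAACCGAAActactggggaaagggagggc

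The ubiquitin-like modifier ISG15 and the proteins that act with it did not pass the test. ISG15 is the modifier, HERC5 its main ligase, HERC6 a related ligase and USP18 the protease that removes it and also dampens receptor signaling. ISG15 was at 16.4, 17.2 and 18.0 CPM in control cells and at 17.1, 18.3 and 17.3 CPM after Sev. Its log2 fold change was 0.03 ± 0.10, and -0.11 with library size alone. A 95% interval by the normal approximation, narrower than the test itself would give, ran from -0.17 to 0.23. HERC5 had a log2 fold change of -0.05 ± 0.10, HERC6 of -0.41 ± 0.20 (adjusted p = 0.136) and USP18 of 0.21 ± 0.14 (adjusted p = 0.245). HERC6 passed the test, lower, without Sev replicate 2 (-0.58, adjusted p = 0.0456) and with library size alone (0.048). The near-identical copy USP41 had 88 counts over all libraries against 1259 of USP18.

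The nuclear restriction factor TRIM22, a ubiquitin ligase that represses viral transcription, was at 34.2, 30.7 and 31.3 CPM in control cells and at 20.97, 20.01 and 20.3 CPM after Sev. The groups were far apart relative to their spread, with a log2 fold change of -0.65 ± 0.09 (adjusted p = 0.00124). SP100, a component of nuclear bodies, was at 29.5, 31.0 and 29.8 CPM against 35.1, 38.2 and 33.0 CPM, a log2 fold change of 0.24 ± 0.09 that missed the limit (adjusted p = 0.0687). IFI27, a small protein of mitochondrial and nuclear membranes, fell from 20.2, 13.4 and 15.9 CPM to 11.1, 11.2 and 8.91 CPM, a log2 fold change of -0.66 ± 0.18 (adjusted p = 0.0185). The call for IFI27 was lost without control replicate 1 or without Sev replicate 3, with adjusted p-values of 0.0537 and 0.05354. Its relative IFI6 had overlapping groups, at 11.7, 8.99 and 11.02 CPM against 9.88, 11.3 and 8.20 CPM, with a log2 fold change of -0.11 ± 0.17.

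The IFI genes of less settled function, IFI44, IFI44L and IFI35, did not pass the test. IFI44, the highest of them, was at 16.3, 16.6 and 17.9 CPM against 15.1, 16.0 and 18.9 CPM, with a log2 fold change of -0.02 ± 0.12. IFI44L, its neighbour on chromosome 1, had a log2 fold change of -0.76 ± 0.29 (adjusted p = 0.0629). IFI44L passed the test without Sev replicate 2 (-1.04, adjusted p = 0.0207), with library size alone (0.0321) and with DESeq2's Wald test (0.0273). IFI35 had a log2 fold change of -0.08 ± 0.13. Over the 23 genes that did not pass the test, adjusted p-values ran from 0.0629 to 0.972, and 6 had an unadjusted p under 0.05, of which 5 were lower after Sev. The log2 fold changes of 9 genes were within 0.15 of 0.

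The 3 genes that could not be tested are among the most inducible targets of interferon in other settings. RSAD2, which encodes the antiviral enzyme viperin, had 12, 4 and 8 counts in control libraries and 3, 6 and 13 after Sev. XAF1, a proapoptotic factor, had 0, 3 and 0 counts against 4, 8 and 12. CXCL10, a chemokine that attracts T cells, had 3, 0 and 0 counts against 3, 0 and 5. All 3 were under the limit of the low-count filter. Without that filter their adjusted p-values were 0.969 for RSAD2, 0.0997 for XAF1 and 0.528 for CXCL10, and XAF1 (unadjusted p = 0.0306 in edgeR) was past the study's limits upward.

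Per kilobase of transcript, in the deposited FPKM values, IFITM3 had the highest control level of the panel at 33.1 ± 2.79 (SD, n = 3) and PARP14 the next at 30.9 ± 7.73, a difference within the spread of PARP14. BST2 followed at 24.1 ± 1.59 and ISG15 at 16.8 ± 0.63. IFI6 at 10.7 ± 1.62 and STAT2 at 10.0 ± 2.13 did not differ beyond their spread. In all, 6 genes were over 10 FPKM in control cells and 4 after Sev, while 11 and 14 were under 1 FPKM. IFI6, at 8.94 FPKM after Sev, left the first class without passing the test. FPKM values carry no TMM scaling, and with 1 added before log2 the median change of all features was itself -0.11. The shares of all features in these classes were not counted. After Sev the order was IFITM3 at 23.2 ± 0.491, BST2 at 18.5 ± 0.701, ISG15 at 15.6 ± 0.373 and PARP14 at 14.2 ± 1.59, so that PARP14 went from rank 2 to rank 4, STAT2 from rank 6 to rank 9 and PARP9 from rank 10 to rank 22.

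Because many of these genes lie in clusters, count ratios of neighbours within 100 kb were compared library by library, in 16 pairs that were chosen after the values had been seen. Each ratio is free of the scaling between libraries. In 5 pairs the ratios of the control and Sev libraries did not overlap. The share over neighbouring pairs of all features was not counted. Of single features, 28.3% did not overlap and were higher, and 28.2% did not overlap and were lower. Each of the 5 pairs except SP140L to SP100 holds a gene of the panel that had passed the test on these same counts. Besides SAMD9 to SAMD9L, the ratio of IFIT3 to IFIT1 was 0.371, 0.531 and 0.452 in control cells and 0.880, 0.771 and 1.21 after Sev, a 2.10-fold higher ratio. The ratio of OAS3 to OAS2 was 20.6, 38.0 and 29.1 against 14.8, 11.3 and 8.87. The ratio of GBP3 to GBP1 was 1.03, 0.984 and 1.12 against 0.320, 0.401 and 0.299, and that of SP140L to SP100 was 0.290, 0.291 and 0.330 against 0.215, 0.191 and 0.251. The two-sided exact permutation test of 3 against 3 cannot go under 0.1, which these 5 pairs reached, and the adjusted value over the 16 pairs was 0.291.

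**Figure D3:**
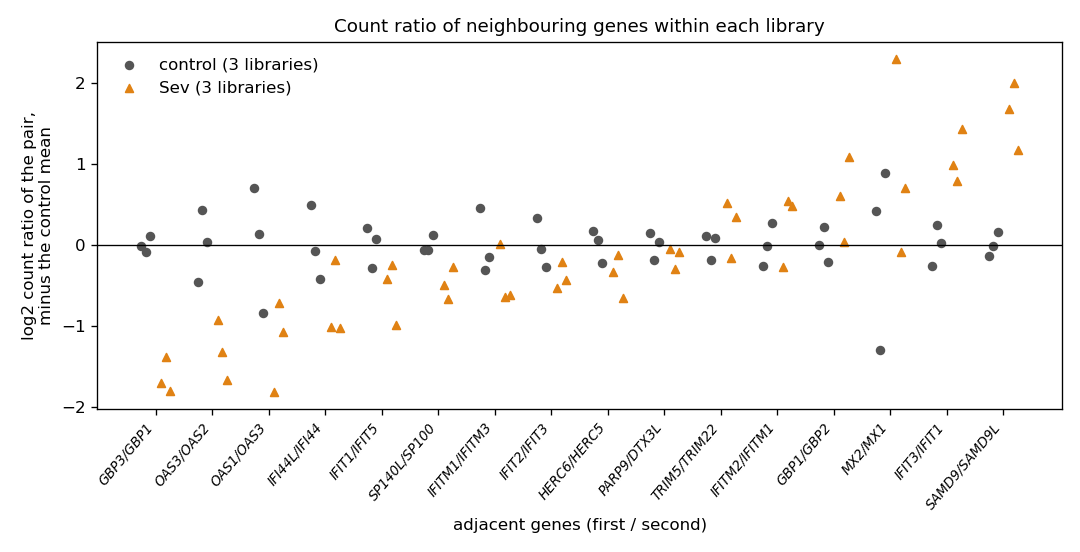
Log2 ratio of counts of neighbouring genes, relative to the control mean (vertical axis), for 16 pairs within 100 kb, with a point per library in control and Sev cells. In the SAMD9/SAMD9L, GBP3/GBP1, OAS3/OAS2, IFIT3/IFIT1 and SP140L/SP100 pairs the 2 groups do not overlap, whereas in the PARP9/DTX3L pair they do, with a difference of -0.15.

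The ISRE core was common in the promoters of the panel, as is known of interferon targets. RefSeq windows were found for 32 of the 41 genes, with 41 windows in all because some genes have several starts. The ISRE core on either strand occurred in 26 of these 41 windows (63.4%) and in 3.57% of 35116 windows of all genes. The element of interferon gamma signaling, with the letters TTC, any 3 bases and GAA, occurred in 26.8% of the panel's windows and in 7.66% of all. The PARP14 window also holds these letters, at position -40 from the start. By outcome, an ISRE core match was found in 7 of 10 genes that fell, in 2 of 2 that rose and in 11 of 17 that did not pass the test. STAT2, SAMD9L and RIGI were the genes that fell whose windows held none.

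**Figure D4:**
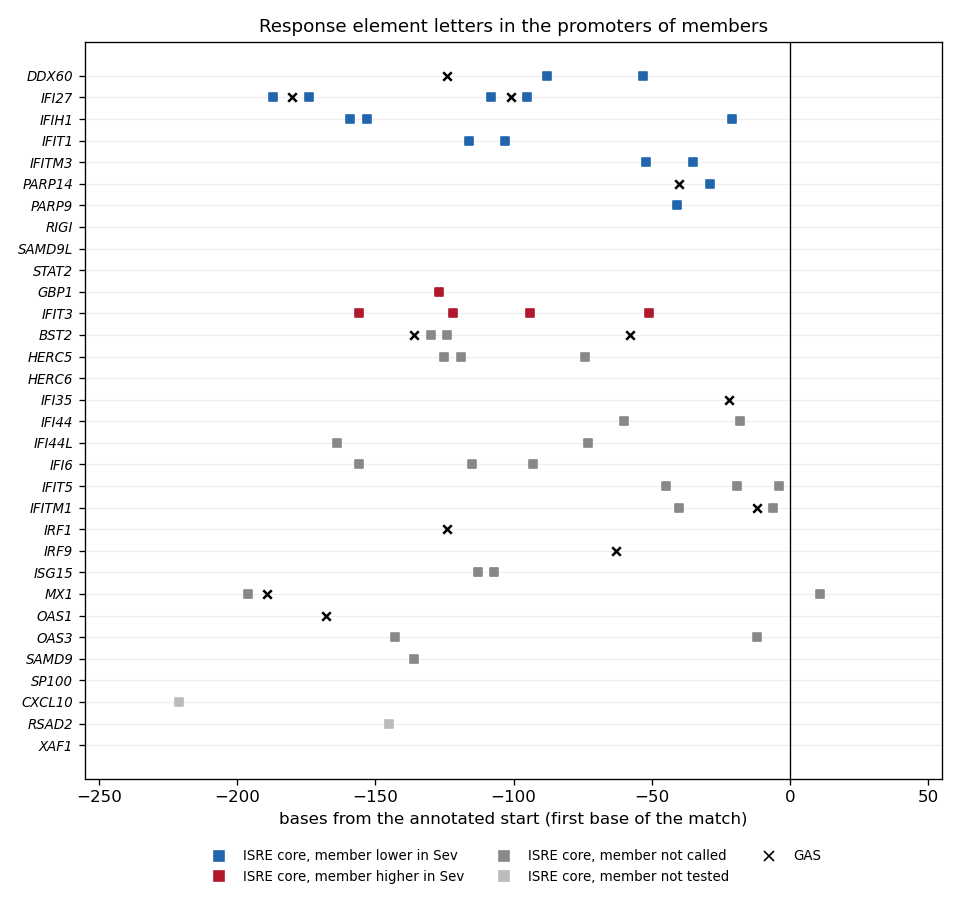
Position of ISRE core matches (squares) and of matches of the interferon gamma element (crosses, GAS) relative to the annotated start (horizontal axis, bases, start at 0) in the RefSeq promoter windows of the panel's genes, with colors for genes that fell, rose, did not pass or were not tested. Genes with several annotated starts have the matches of each window drawn on the same line. ISRE core matches occur in each of these groups, whereas GAS matches are absent from the genes that rose and those not tested.

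The genes of the interferon pathway itself were followed from a list of 55, of which 36 were tested, 6 rose (16.7%, against 22.1% of all tested features) and 12 fell (33.3%, against 21.5%), with a median log2 fold change of -0.09. Of the 21 interferon ligands, only 3 had enough reads to be tested, and these were named after their values had been seen. IFNA1 fell from 18, 10 and 24 counts to 3, 7 and 5 (log2 fold change of -1.57 ± 0.47, adjusted p = 0.0285) and IFNE from 73, 81 and 102 counts to 36, 8 and 41 (-1.41 ± 0.46, adjusted p = 0.0401). IFNA5 did not pass the test (0.81 ± 0.37, adjusted p = 0.112). The call for IFNA1 was lost when control replicate 1 or 3 or Sev replicate 1 or 3 was left out (0.0765 to 0.115), and that for IFNE without any 1 control library or Sev replicate 1 (0.0617 to 0.1005). The summed counts of all 21 ligands were 134, 124 and 161 in control libraries and 119, 103 and 101 after Sev. IFNB1, which encodes interferon beta, had 0 counts in each control library and 4, 5 and 0 counts after Sev. The summed counts of the interferon alpha genes, IFNA1 included, were 38, 27 and 43 against 70, 84 and 48, but these genes are near-identical and share reads, and no test was made of the sum.

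Both chains of the type I receptor fell, although IFNAR2 shares 2038 exon bases with AP000295.1 on the same strand (655 counts in all against 2768 of IFNAR2) and 1803 with IL10RB-DT on the other strand, so that some of its reads are uncertain. IFNAR2 was at 20.4, 17.1 and 10.6 CPM in control cells and at 6.45, 6.73 and 5.40 CPM after Sev, a log2 fold change of -1.37 ± 0.24 (adjusted p = 0.00305). IFNAR1 was at 56.9, 54.8 and 55.7 CPM against 44.9, 25.5 and 38.0 CPM, with -0.63 ± 0.18 (adjusted p = 0.0269), and missed the limit when any control library or Sev replicate 3 was left out (0.0544 to 0.0703). The interferon gamma receptor chains IFNGR1 and IFNGR2 had log2 fold changes of -0.11 ± 0.09 and -0.14 ± 0.12 and did not pass the test. IFNGR1 passed, lower, in each of the 3 limma fits on FPKM (-0.21 to -0.25, adjusted p = 0.0441 to 0.0477). IFNGR2 ranged from -0.24 to -0.05 with a library left out. Whether the chains of the 2 receptors differed in their change was not tested. Of the kinases, JAK1 rose by 0.33 ± 0.07 (adjusted p = 0.00633), though not with library size alone (0.06655) or in the 3 limma fits on FPKM (0.0736 to 0.0813). JAK2 and TYK2 had log2 fold changes of -0.04 ± 0.12 and -0.15 ± 0.07 and did not pass the test. TYK2 passed, lower, with library size alone (-0.29, adjusted p = 0.0137) and in the 3 limma fits (0.0121 to 0.0165).

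Of the sensing proteins and adapters, MAVS, the mitochondrial adapter of RIGI and IFIH1, fell from 250.9, 225 and 245 CPM to 127, 137 and 119 CPM (log2 fold change of -0.92 ± 0.08, adjusted p = 0.000238). STING1, the adapter of cytosolic DNA sensing, fell by 0.72 on the log2 scale, and IRF2, a repressor that competes with IRF1, by 1.40. IKBKE, IFI16, DHX58 and IRF5 fell by 0.74, 0.50, 1.10 and 0.53. The calls for DHX58 were lost without control replicate 1 or Sev replicate 1 (adjusted p = 0.05334 and 0.0566) and those for IRF5 without control replicate 2 or Sev replicate 1 (0.05073 and 0.0636). In the other direction, TBK1, the kinase downstream of these adapters, rose from 27.9, 30.9 and 28.6 CPM to 45.9, 42.1 and 41.7 CPM, a log2 fold change of 0.57 ± 0.09 (adjusted p = 0.00198). Its substrate IRF3 had -0.39 ± 0.14 (adjusted p = 0.059; 0.0212 without control replicate 3), and CGAS had 2, 7 and 4 counts against 6, 16 and 16 and was not tested.

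**Figure D5:**
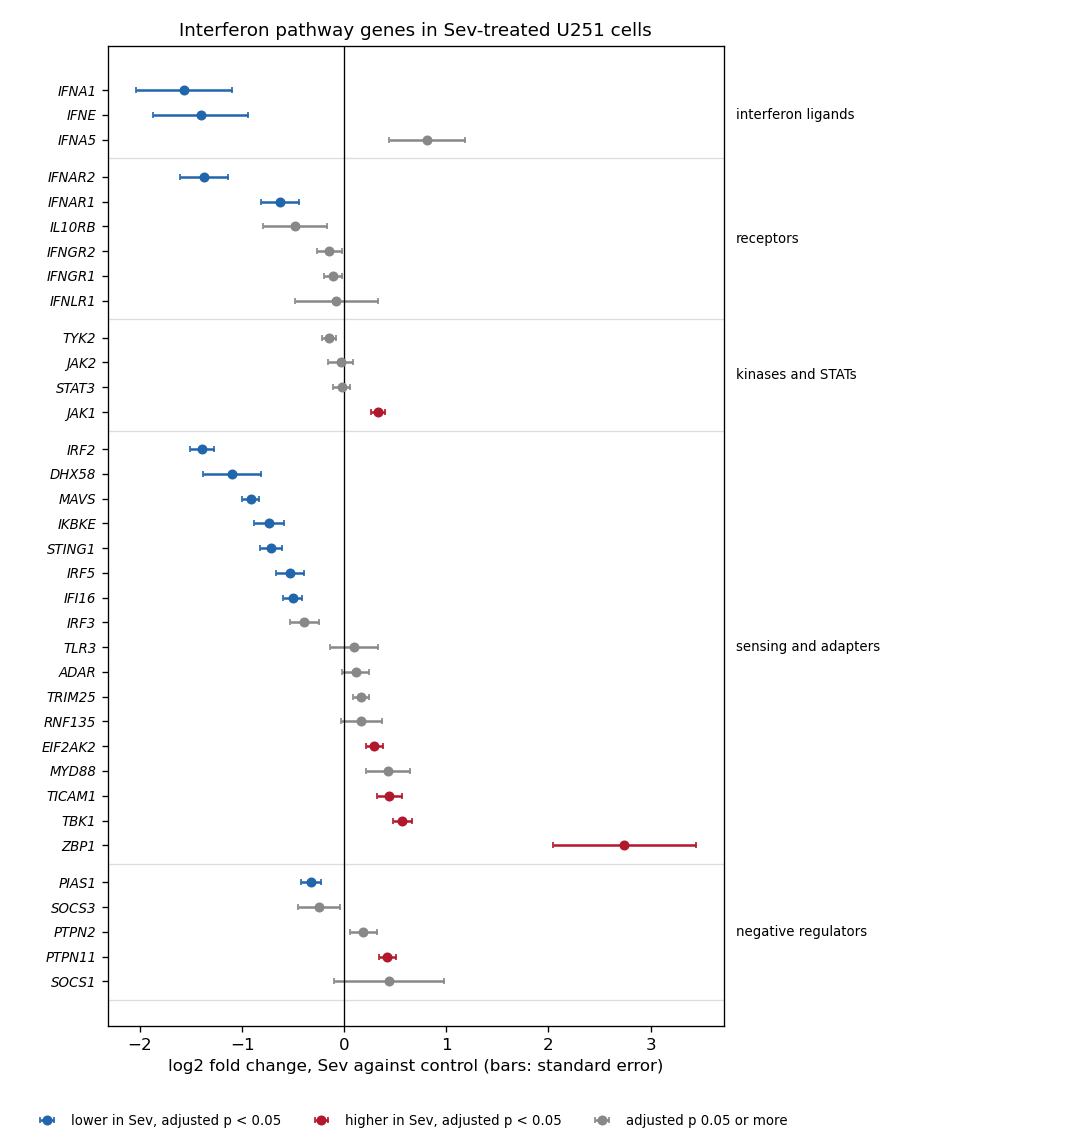
Log2 fold change (horizontal axis) of tested genes of the interferon pathway after Sev, grouped as ligands, receptors, kinases and STATs, sensing proteins and adapters, and negative regulators. Points are edgeR estimates, bars are standard errors and colors mark the call; IFNAR1 and IFNAR2 lie at -0.63 and -1.37, and TBK1 and MAVS lie on opposite sides of 0.

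ZBP1, a sensor of nucleic acids in the Z form, had 1, 7 and 1 counts in control libraries and 12, 22 and 22 after Sev, a log2 fold change of 2.74 ± 0.70 (adjusted p = 0.0151). It was 4.28 without control replicate 2, and the call was lost without control replicate 1 or 3 (0.05947 and 0.05835). TICAM1, the adapter of TLR3, rose by 0.44 ± 0.12, a call lost when control replicate 1 or 3 or Sev replicate 1 or 2 was left out (0.0516 to 0.0577) and with library size alone (0.06005). EIF2AK2, the RNA-activated kinase PKR, rose by 0.29 ± 0.08, a call lost when control replicate 1 or 3 or Sev replicate 3 was left out (0.0607 to 0.1) and with library size alone (0.215). Of the 5 negative regulators, 1 rose and 1 fell. The phosphatase PTPN11 rose by 0.42 ± 0.09 (adjusted p = 0.00584). PIAS1, an inhibitor of STAT proteins that was named after its value had been seen, was at 77.0, 77.9 and 65.98 CPM in control cells and at 55.9, 57.5 and 62.7 CPM after Sev (log2 fold change of -0.33 ± 0.10, adjusted p = 0.0265). The call for PIAS1 was lost when control replicate 1 or 2 or Sev replicate 1 or 2 was left out (0.0622 to 0.1009). The phosphatase PTPN2 did not pass the test (0.19 ± 0.13), nor did SOCS1 and SOCS3, which inhibit JAK kinases and had log2 fold changes of 0.44 ± 0.54 and -0.25 ± 0.20 with overlapping groups. SOCS3 passed the test, lower, without Sev replicate 2 (-0.49, adjusted p = 0.0414).

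A second list of 50 interferon-stimulated genes, none of them in the panel, also held changes in both directions. Of its 42 tested genes, 8 rose (19%, against 22.1% of all tested features) and 16 fell (38.1%, against 21.5%), with a median log2 fold change of -0.22. SP110, TDRD7, PLSCR1, HELZ2, PML and ZC3HAV1 fell by 0.98, 0.95, 0.80, 0.71, 0.59 and 0.50 on the log2 scale, beside DTX3L. PML and SP110 encode nuclear body proteins like SP100, and ZC3HAV1 encodes a protein that binds viral RNA for decay.

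Among those that rose, APOL1, an apolipoprotein that lyses trypanosomes, went from 1.23, 1.77 and 1.46 CPM to 19.9, 22.3 and 21.1 CPM, a 14.2-fold higher level (log2 fold change of 3.83 ± 0.17, adjusted p = 2.12e-05). ISG20, an exonuclease that degrades viral RNA, went from 5.44, 3.96 and 3.69 CPM to 22.03, 18.2 and 23.3 CPM (log2 fold change of 2.28 ± 0.19, adjusted p = 0.000157). GBP5 rose by 1.27 ± 0.13, as its relatives GBP1 and GBP2 did, but GBP3 of the same cluster was at 7.99, 7.62 and 6.96 CPM against 5.04, 4.47 and 5.91 CPM and fell (-0.55 ± 0.16, adjusted p = 0.0233; chosen after its value was seen). LAMP3, a lysosomal membrane protein, had no counts in control libraries and 19, 16 and 29 after Sev, at least 7.97-fold higher against a floor of 3 counts per library. BATF2, NT5C3A, WARS1 and LAP3 rose by 2.86, 0.70, 0.46 and 0.44 on the log2 scale, the first from 5, 6 and 0 counts to 17, 34 and 23.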

How the data were processed

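The authors deposited counts of reads per gene, without normalization, and FPKM values, which are scaled by gene length and library size, for the same features of all 6 libraries. The submitters' processing notes name bcl2fastq 2.19, featureCounts and the build hg18. The aligner, the annotation and the strand setting of the counting are not given in the sources used here. Antisense and overlapping genes are therefore uncertain. Gene positions are those of GENCODE 29 on GRCh38, joined by Ensembl identifier, not by coordinate, and promoters are those of RefSeq on GRCh38.p14. No column was without a sample (0 such columns).

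The test was that of edgeR 4.0.16 (R 4.3.3), with filterByExpr, TMM and a quasi-likelihood fit with the group as the only term. Benjamini-Hochberg adjustment of p-values covered all 27514 tested features, with a limit of 0.05, and the test was checked on simulated data. Groups were taken from the labels. CPM values hold no prior count. The precision is limited by the 3 libraries per group and, for genes with few counts, also by the depth. Standard errors are from the edgeR estimate and its F statistic. Count ratios of neighbours were compared with an exact permutation test. Windows run from 250 bases before to 50 after the start.

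The members and lists were chosen with earlier results of these data known. Every member was named, with values per library for those that passed the test and for the highest in each role. Of the pathway list and the second list, at most the 8 smallest p-values in each direction under the limit were named, plus IFNAR1, IFNAR2, IFNGR1, IFNGR2, JAK1, JAK2, TYK2, CGAS, STING1, MAVS, TBK1, IRF3, SOCS1, SOCS3 and IFNB1 whatever their values. The tested ligands, PIAS1, PTPN2, GBP3 and the markers with a call were named after their values had been seen. The results for 2 of the named genes are not reported here. C19orf66 of the second list had no matching identifier. IRF2 stands with the sensing proteins and adapters in the list although it is a transcription factor.

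Other settings were a scaling by library size alone or by the size factors of DESeq2 1.42.0, its Wald test, no low-count filter, a minimum of 10 counts per library, a replicate block, and leaving out 1 library at a time. FPKM were also tested with limma 3.58.1 after adding 1 or 0.1 and taking log2, keeping features at 0.5 or more in 3 libraries, and with 1 added also for all features.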

Additional observations from a re-analysis of the deposited data

How the results depend on the processing

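Of the 15 genes of the panel that passed the test, 8 kept the call in every alternative that was run (SAMD9L, PARP9, PARP14, STAT2, IFIH1, DDX60, TRIM22 and IFIT1), 4 lost it when at least 1 library was left out, and 0 turned direction. Of the alternatives in which they were tested, OAS2, GBP1 and GBP2 lost it only in limma on log2(FPKM + 1) without a filter, and OAS2 was not tested in the filtered limma fits, since it was under their FPKM minimum. The count that rose, 4, was 2 with limma on log2(FPKM + 1), 2 on log2(FPKM + 0.1) and 0 on log2(FPKM + 1) without a filter, and 3 to 4 with a library left out. The filtered limma fits tested 32 genes of the panel. Of all features, 22.1% rose in the main fit and 16.4%, 16.2% and 9.64% in those limma fits. With a library left out, 16.7 to 20% did. The count that fell, 11, was 17 with library size alone and 9 to 12 with a library left out. Of all features 21.5% fell, against 27.3% with library size alone and 15.6 to 19.3% with a library left out. Past the study's limits, the 2 upward were 1 with library size alone, 0 in each of the 3 limma fits on FPKM and 1 to 2 with a library left out, and the 5 downward were 2 on log2(FPKM + 1), 2 without its filter and 3 to 8 with a library left out. How the shares of all features past these limits moved in those settings was not counted. The median of -0.23 was -0.38 with library size alone, where the median of all features was -0.15, a shift of -0.14, and the members less all features gave -0.23 against -0.22. That distance was -0.11 on log2(FPKM + 1), -0.14 on log2(FPKM + 0.1) and -0.14 without control replicate 1. Without the low-count filter the median was -0.12, over 41 genes. With a library left out it was between -0.29 and -0.14. The pseudocount of FPKM lowers the fold of genes at low levels; for the other changes the cause was not tested.

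Some genes that did not pass the test changed sign, most of them near 0. ISG15 was at -0.11 with library size alone, -0.11 on log2(FPKM + 1) with and without the filter, -0.11 on log2(FPKM + 0.1) and -0.011 to 0.060 with a library left out. IFIT2 was at -0.03921 with library size alone, -0.02565 on log2(FPKM + 1) with and without the filter and -0.04515 on log2(FPKM + 0.1), and OAS3 at -0.07774, -0.05893 and -0.07881. IFIT5 was at 0.0078 and 0.0079 with DESeq2's size factors and Wald test and -0.17 to 0.10 with a library left out, and SAMD9 at 0.0011, 0.0011 and -0.18 to 0.11. With a library left out, MX2 ranged from -0.41 to 1.05, IFI6 from -0.22 to 0.0062, IFI44 from -0.12 to 0.044, JAK2 from -0.16 to 0.028 and SOCS1 from -0.37 to 0.76.

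The groups share replicate numbers, but same-numbered libraries did not deviate together (correlations of -0.10, -0.0055 and 0.10 over 13156 genes). Libraries of different number had correlations of -0.19 to 0.18. The main test did not pair the samples, but correlations of this kind cannot exclude that libraries were handled in numbered rounds. With the replicate block, 3 genes of the panel rose and 11 fell. RIGI and IFIT3 lost the call (adjusted p = 0.05377 and 0.075), IFITM1 gained it (0.0291), and EIF2AK2, IFNA1 and PIAS1 lost it outside the panel (0.0627, 0.0799 and 0.0704). Over all features 5228 rose and 5021 fell, against 6094 and 5920 without it.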
